A study of Mus musculus with 4 samples.

Results

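The genes described here encode 6 MHC class I heavy chains (H2-D1, H2-Q4, H2-Q6, H2-T22, H2-T23 and H2-M3), the 3 proteins that bring peptides to them (Tap1, Tap2 and Tapbp) and their transcriptional activator Nlrc5. They were chosen by name, without H2-K1 and other heavy chains such as H2-Q7, and all 10 were found among the 27998 genes counted in each of 2 single-cell RNA libraries. The libraries held classical (Ly6C-high) monocytes, FACS-sorted as Ly6G-CD11b+CD115+Ly6Chi, from the bone marrow of WT C57BL/6 mice that had received no treatment named in the labels. One library pooled 5 young (15 weeks) and 5 old (26.5 months) females, and the other 5 young (14 weeks) and 5 old (27 months) males, each mouse with its own hashtag antibody. Sex, library and experiment therefore coincided, so that levels in females and males were not compared. The comparisons asked how the expression of these genes in classical monocytes differed with age.

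MHC class I molecules present peptides from inside the cell to CD8 T cells, and each is a heavy chain paired with beta-2-microglobulin. Peptides made by the proteasome are pumped into the endoplasmic reticulum by the transporter formed of Tap1 and Tap2, and Tapbp (tapasin) bridges that transporter and the empty heavy chain. H2-D1 is a classical heavy chain, whereas the others are less polymorphic: H2-T23 encodes Qa-1, which is recognized by NKG2A receptors of NK cells, H2-M3 binds N-formylated peptides of bacteria and mitochondria, H2-T22 is recognized by some gamma delta T cells, H2-Q6 belongs to the Qa-2 family, and H2-Q4 encodes Qb-1. Nlrc5 acts at the promoters of class I genes, and the whole pathway is known to be induced by interferons.

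By the GRCm38 annotation (Gencode release vM21), 9 of the 10 protein-coding genes lie on chromosome 17, in the MHC, and Nlrc5 on chromosome 8. Tapbp (33915899-33929292), Tap1 (34187553-34197225) and Tap2 (34203527-34216321) come first, followed by H2-D1 (35262730-35267499), H2-Q4 (35379617-35385290) and H2-Q6 (35424850-35430055). H2-T23 (36029773-36032855), H2-T22 (36037128-36042747) and H2-M3 (37270220-37274484) follow. Nlrc5 occupies 94434356-94527272 on chromosome 8. UMIs were counted per gene, and because class I heavy chain genes are near copies of each other (H2-Q6 and H2-Q7 in particular), the division of counts among them is uncertain.

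The 250 bases before the RefSeq start site (GRCm38.p6) were compared for the 8 that matched the promoter table (Tap2 and Nlrc5 did not). The promoters of H2-D1, H2-T22, H2-M3 and Tap1 are shown because the first 3 hold an exact match to TGATGAC and the last does not. TGATGAC is 1 form of the X2 box, a part of the element at which Nlrc5 complexes are known to assemble. Other forms were not searched, so that a window without this match may still hold the element. Capitals mark matches, on either strand, to TGATGAC (X2 box), CCAAT (bound by NF-Y), GAANNGAAA (1 form of interferon regulatory factor sites) and GGGATTCCC (NF-kB).
H2-D1, chr17:35262844-35263093, plus strand: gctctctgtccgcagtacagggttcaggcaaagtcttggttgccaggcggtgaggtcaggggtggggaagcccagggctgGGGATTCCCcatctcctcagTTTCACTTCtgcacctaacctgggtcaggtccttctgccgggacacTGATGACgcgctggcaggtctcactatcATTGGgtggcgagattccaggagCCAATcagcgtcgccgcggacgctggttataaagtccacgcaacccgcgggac
H2-T22, chr17:36042743-36042992, minus strand: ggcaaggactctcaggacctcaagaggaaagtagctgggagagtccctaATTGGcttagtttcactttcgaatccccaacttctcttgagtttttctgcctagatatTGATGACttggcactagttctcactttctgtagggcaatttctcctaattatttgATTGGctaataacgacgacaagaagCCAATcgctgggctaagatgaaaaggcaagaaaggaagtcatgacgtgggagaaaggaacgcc
H2-M3, chr17:37269984-37270233, plus strand: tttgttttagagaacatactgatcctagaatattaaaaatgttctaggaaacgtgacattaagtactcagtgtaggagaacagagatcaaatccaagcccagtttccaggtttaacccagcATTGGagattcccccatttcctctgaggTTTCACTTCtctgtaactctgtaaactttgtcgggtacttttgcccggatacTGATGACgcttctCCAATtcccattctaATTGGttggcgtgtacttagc
Tap1, chr17:34187306-34187555, plus strand: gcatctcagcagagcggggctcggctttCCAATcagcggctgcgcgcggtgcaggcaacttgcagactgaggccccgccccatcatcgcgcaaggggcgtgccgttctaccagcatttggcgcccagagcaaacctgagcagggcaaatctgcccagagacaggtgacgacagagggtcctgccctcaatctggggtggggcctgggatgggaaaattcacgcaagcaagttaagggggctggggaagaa

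TGATGAC was present in 5 of the 8 promoters (H2-D1, H2-Q4, H2-Q6, H2-T22 and H2-M3) and in 2.69% of 32851 promoter windows of the same length. CCAAT was present in all 8, against 33.8% of windows. GAANNGAAA was found in 4 (H2-D1, H2-Q4, H2-Q6 and H2-M3), against 6.31% of windows, and GGGATTCCC in H2-D1 and H2-Q6, against 0.301%. In the 8 promoters no match overlapped one of another motif. The window of Tap1 shares 225 bases with that of the immunoproteasome gene Psmb9, which is transcribed from the opposite strand. The 4 motifs were chosen with these sequences in view. These are matches of letters, and binding was not measured.

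In the females 6641 cells were assigned to mice (259 to 1592 per mouse) and in the males 1227 (49 to 206). UMIs per mouse ranged from 2827638 to 18186954 in females and from 330586 to 1108320 in males. Cells of old mice were deeper than those of young mice, with a median UMI count per cell of 9699.5 to 13033 against 7978 to 8990 in females and of 4489.5 to 8844 against 3805.5 to 4455.5 in males. Csf1r, Ly6c2, Ccr2 and Itgam, which mark the sorted cells, were detected in every mouse. The libraries shared 0 cell barcodes.

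In old females the transcripts of all 10 genes were more abundant than in young females, and those of 6 passed the test over all genes. Levels of the members in each mouse are given as counts per 1000000 UMIs (CPM) scaled by TMM, from UMIs summed over its cells. A difference in the number of cells of a kind and in RNA per cell cannot be told apart in such sums. Levels by cluster, sums of marker genes and upper limits for a count of 0 are CPM without TMM scaling. Of 10074 genes tested, 2.03% rose (204 genes, edgeR quasi-likelihood test, adjusted p under 0.05), and 141 fell. The median log2 fold change of the 10 genes was 0.61, beside 0.00 over all genes tested. In 9 of the 10 every old mouse lay above every young mouse, which was so for 3.1% of all genes tested.

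**Figure D1:**
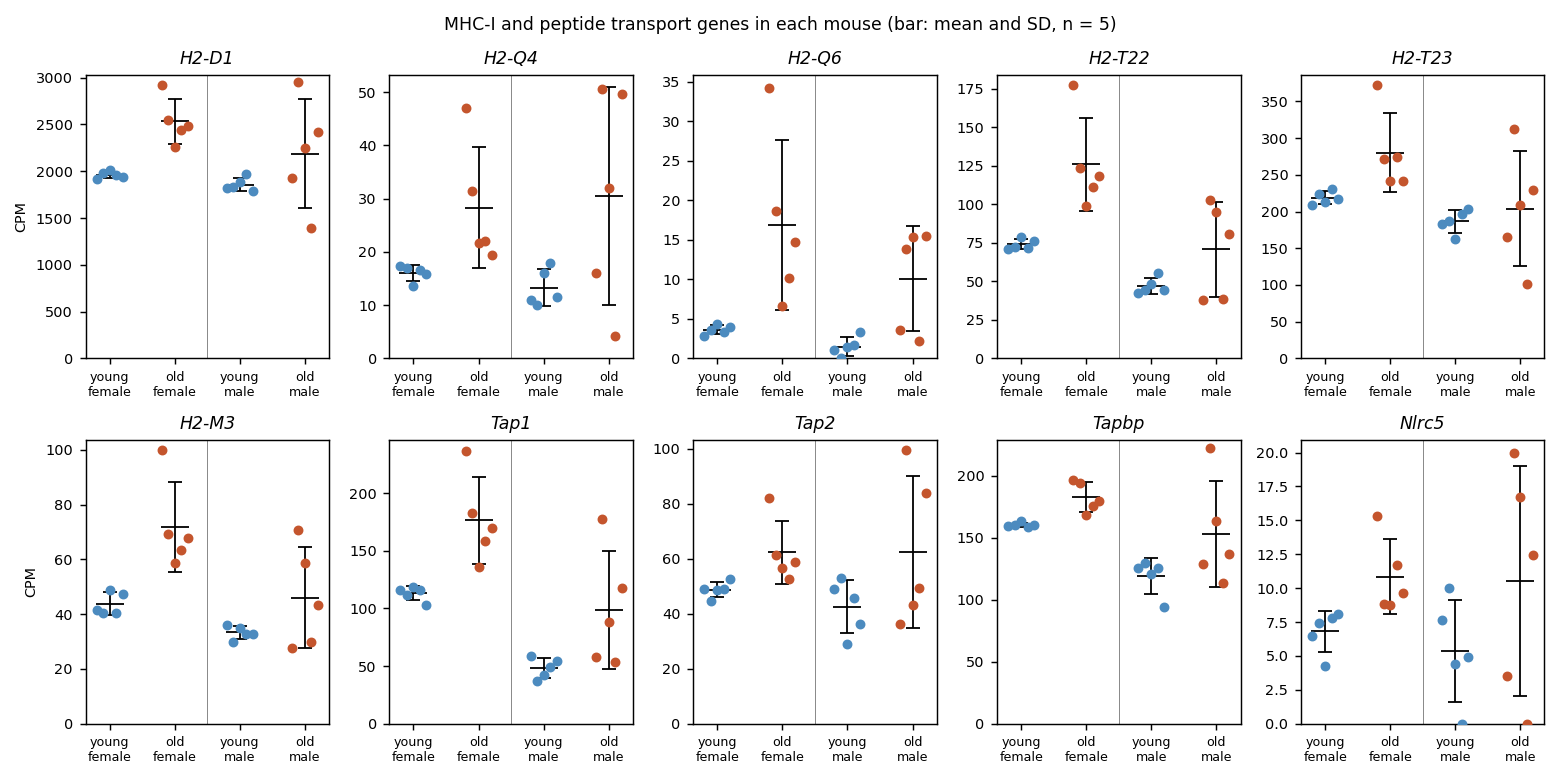
CPM (vertical axes, from 0) of the 10 genes in young and old mice of the female and the male pool, with 1 point per mouse and a bar for the mean and SD of 5 mice. Old females lie above young females in 9 of 10 panels, whereas old and young males overlap in all 10.

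Among the heavy chains, H2-D1 stood at 2925, 2547, 2263, 2440 and 2485 CPM in old females 1 to 5. In young females 1 to 5 it stood at 1922, 1982, 2010, 1958 and 1936. The young mice differed little from each other and the lowest old mouse was above all of them. The mean was 2532 ± 244 in old and 1962 ± 35.2 in young females (SD, n = 5), a log2 fold change of 0.37 (SE 0.05, edgeR adjusted p = 0.000862).

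H2-Q6 rose most. It was at 34.2, 18.6, 6.65, 10.2 and 14.8 CPM in the old females and at 2.85, 3.63, 4.29, 3.28 and 3.98 in the young. The old group was spread over a wide range, with old female 3 the lowest but still above every young mouse. The mean of 16.9 ± 10.7 was 4.68 times that of the young (3.60 ± 0.567, SD, n = 5), with a log2 fold change of 2.16 (SE 0.40, edgeR adjusted p = 0.00697). H2-Q4, its neighbour, was at 47.0, 31.5, 21.6, 22.1 and 19.5 in old and 17.4, 16.9, 13.6, 16.5 and 15.9 in young females. The groups did not overlap, but the test was just missed (log2 fold change 0.74, SE 0.20, edgeR adjusted p = 0.053).

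H2-T22 was at 177, 123, 99.2, 111 and 118 CPM in old females, against 71.2, 72.6, 78.6, 71.5 and 75.9 in young. Every old mouse exceeded the young by at least 20.6, and the log2 fold change was 0.76 (SE 0.12, edgeR adjusted p = 0.0023). H2-M3 was at 100, 69.3, 58.7, 63.4 and 67.7 in old and 41.7, 40.5, 49.0, 40.4 and 47.5 in young females. The groups were again apart (log2 fold change 0.71, SE 0.12, edgeR adjusted p = 0.00387). H2-T23 was at 373, 272, 241, 274 and 241 in old and 209, 223, 213, 231 and 217 in young females. Old female 1 stood far above the others, and although no old mouse reached down to the young ones the test was missed (log2 fold change 0.35, SE 0.09, edgeR adjusted p = 0.0518).

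Of the peptide transport genes, Tap1 was at 236, 183, 136, 158 and 170 CPM in old and 116, 112, 119, 116 and 103 in young females. The groups did not overlap, and Tap1 rose with a log2 fold change of 0.64 (SE 0.11, edgeR adjusted p = 0.00411). Tap2, its partner in the transporter, was at 81.9, 61.3, 56.8, 52.5 and 58.9 in old and 49.0, 44.6, 48.6, 48.9 and 52.7 in young females. It was the only one of the 10 whose groups met, since old female 4 lay just under young female 5 (log2 fold change 0.34, SE 0.10, edgeR adjusted p = 0.0767). Tapbp was at 196, 194, 168, 175 and 180 in old and 160, 160, 163, 159 and 160 in young females. Its change was the smallest of the 10 and passed the test (log2 fold change 0.19, SE 0.05, edgeR adjusted p = 0.0415), although not without either old female 1 or 2, without any 1 of the young females (adjusted p from 0.0672 to 0.108 over those 7), or in cells thinned to 2000 UMIs (adjusted p = 0.0807). The other 5 genes that rose passed in each of the 10 fits that left out 1 mouse.

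Nlrc5 was sparse, with 414 UMIs over the old and 303 over the young females. It was at 15.3, 8.79, 8.74, 11.7 and 9.65 CPM in old and 6.45, 7.44, 4.29, 7.76 and 8.08 in young females. The ranges came within 0.668 of each other, and the test was missed (log2 fold change 0.58, SE 0.17, edgeR adjusted p = 0.0766). Old female 1 was the highest of the 10 females for each of the 10 genes. Without that mouse 7 genes passed the test, and without each other mouse between 5 and 9 did.

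Markers of other cells were also summed in the females. Of the 5 T or NK cell genes in the files all were detected, at a sum of 0.548 to 6.52 CPM in old and 0.354 to 11.5 in young mice. Basophil genes summed to at most 3.32 CPM in the females, with Fcer1a and Prss34 at 0 UMIs. In the males, by contrast, all 4 basophil genes were detected. They summed to 30.5 to 568 CPM in old (median 116) and 23 to 477 in young males (median 33.5). The 5 neutrophil genes summed to 68.7 to 319 in old and 97.3 to 1240 in young females. The 4 genes of conventional dendritic cells summed to 4.75 to 12.6 in old and 9.46 to 15.1 in young females. The 3 genes of plasmacytoid dendritic cells summed to 197 to 300 in old and 177 to 208 in young females, with the old median (231) above every young mouse. Of these, Bst2, which is also known to be induced by interferons in other cells, had a UMI in 78.6% of the female cells of cluster 0 described further on, and Siglech in 0.549%. The part of these lists in the levels of the members was not tested. Without the 518 cells that held at least 2 UMIs of T or NK cell, B cell or basophil genes, 9 of the 10 members passed the test.

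The other genes of the MHC class I pathway (heavy chains, immunoproteasome, chaperones and regulators) were counted from a list of 36, of which 25 were tested in females. Of these, 10 rose and 0 fell, where 2.03% of all genes tested rose, and the median log2 fold change was 0.23. The authors had already reported H2-K1, H2-Q7, B2m and Psmb8 as changed with age in these data. The list was made with such results known, so that the count of 10 is no independent support. The 5 with the lowest adjusted p were B2m, the light chain of every class I molecule (log2 fold change 0.41, edgeR adjusted p = 0.000812), H2-Q7 (2.10, 0.0023), H2-K1 (0.65, 0.00232) and the immunoproteasome subunits Psmb8 (0.45, 0.00389) and Psmb9 (0.54, 0.00839). The mean of the members also varied among mice of 1 age. After subtraction of each age mean, the genes outside the lists that followed the members most closely over the 10 females were Ly6e (r = 0.971), G6pdx (0.964), Pla2g16 (0.957), Sepw1 (0.952) and Gbp2 (0.951), of 9969 genes compared, all from 1 library and with old female 1 among the points.

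In the males the fold changes were positive too, but the old mice differed widely among themselves, and no gene passed the test. Of 5656 genes tested 0% rose by that rule (edgeR, lowest adjusted p = 0.0695), while DESeq2 called 22, and in edgeR 618 were at an unadjusted p under 0.05. H2-Q6 and Nlrc5 were too sparse to be tested in this fit. All 8 others had a positive log2 fold change, with a median of 0.45 (0.01 over all genes tested), and 4 had an unadjusted p under 0.05, Tap1, H2-Q4, Tapbp and H2-T22. The old and young males were apart in 0 of the 8, against 0.955% of all genes tested.

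Tap1 had the lowest p of the 8. It was at 57.7, 178, 87.8, 53.5 and 118 CPM in old males 1 to 5 and at 58.9, 37.1, 42.3, 49.0 and 54.3 in the young. Old males 2, 3 and 5 exceeded every young male, whereas old males 1 and 4 lay within the young range. The log2 fold change was 0.99 (SE 0.28, edgeR adjusted p = 0.23), and DESeq2 gave an adjusted p of 0.0459.

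Old males 2 and 5 were above every young male in the other members too, while the places of the other 3 varied. H2-D1 was at 1930, 2955, 2252, 1392 and 2416 in old and 1818, 1827, 1883, 1966 and 1786 in young males (log2 fold change 0.24, SE 0.13, edgeR adjusted p = 0.522). Old male 2 was the highest and old male 4 the lowest of all 10 mice. H2-T22 was at 38.2, 103, 94.8, 38.6 and 80.7 in old and 42.5, 44.2, 48.1, 55.6 and 44.4 in young males, so that old males 1 and 4 lay under all the young (log2 fold change 0.58, SE 0.26, edgeR adjusted p = 0.426). H2-Q4 was at 16.0, 50.6, 32.1, 4.28 and 49.6 in old and 10.9, 9.99, 16.0, 18.0 and 11.5 in young males (log2 fold change 1.11, SE 0.42, edgeR adjusted p = 0.324). Old male 4 had 2 UMIs of H2-Q4 in all. Tapbp was at 129, 222, 163, 114 and 136 in old and 125, 130, 121, 126 and 93.8 in young males (log2 fold change 0.36, SE 0.15, edgeR adjusted p = 0.396). H2-M3 (log2 fold change 0.44, SE 0.24), Tap2 (0.46, SE 0.26) and H2-T23 (0.13, SE 0.19) had edgeR adjusted p values of 0.518 to 0.862. For H2-T23 the sign rested on old male 2, without which the log2 fold change was -0.10.

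For H2-Q6 in males 30 UMIs were counted in the old and 5 in the young mice. It was at 3.55, 13.8, 15.3, 2.14 and 15.5 CPM in old males and at 1.09, 0, 1.46, 1.63 and 3.29 in the young. The count of 0 in young male 2 allows a level of up to 4.27 (3 counts in that mouse). Nlrc5 was at 3.55, 19.9, 16.7, 0 and 12.4 in old and 7.63, 9.99, 4.37, 0 and 4.94 in young males, where 0 allows up to 6.54 in old male 4 and 4.91 in young male 4. Old male 3 exceeded all young males in 9 of the 10 members, all but Tap2, whereas old male 1 did so in 1 (H2-Q6) and old male 4 in 0.

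Old male 4 was the smallest sample, with 49 cells. Of these 11 fell into the NeuMo-like cluster described further on and 0 into the Apoe-high-like cluster, where most members were low and high, respectively. Its 5 neutrophil genes summed to 4410 CPM, while the other old males ranged from 92.0 to 1730 and the young males from 88.9 to 3990. The part of these differences in the levels of the members was not tested. Without old male 1, edgeR called 39 genes, and without old male 4, 24, but 0 members in either fit.

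**Figure D2:**
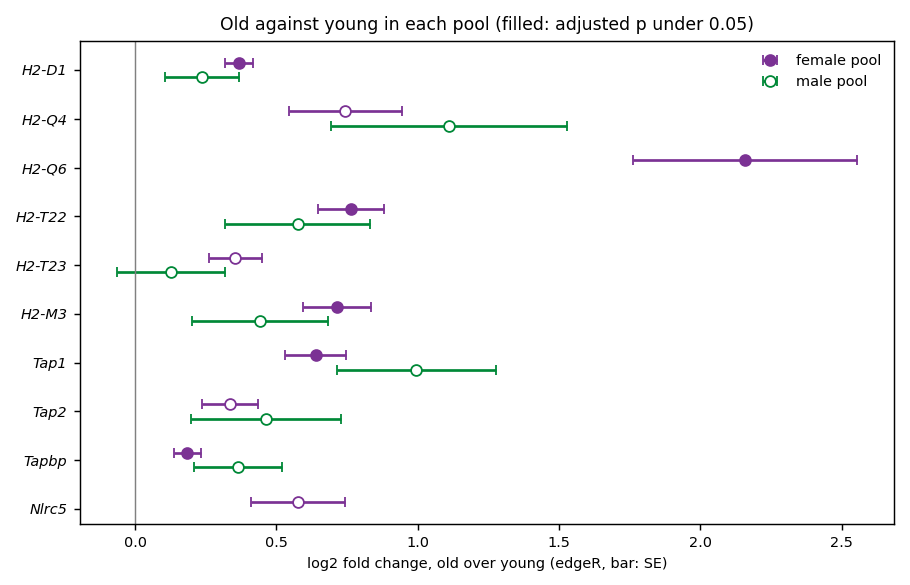
Log2 fold change of old over young (horizontal axis, edgeR, bars: SE) for each gene in the female and the male pool, with filled points for an adjusted p under 0.05. All points lie above 0, 6 of the 10 female and 0 of the 8 male points are filled, and the male bars are longer.

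The age effect was not shown to differ between the sexes. In the fit over all 20 mice, the interaction of sex and age was called for 0 of the 10 members (edgeR, lowest adjusted p = 0.937, 0 with an unadjusted p under 0.05, 0 with DESeq2). Without old male 2 it was still called for 0, but H2-D1 and H2-T23 had an unadjusted p under 0.05, and the female effect was the larger in 8 of the 10 members, against 4 with all mice. Over all 8893 genes tested it was called for 2 by edgeR and 4 by DESeq2, and 527 had an unadjusted p under 0.05.

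To compare the share of cells with each transcript, every cell was thinned to 2000 UMIs, since the cells of old mice were deeper. Cells with fewer UMIs were left out (3 of 3009 old and 1 of 3632 young in females, 26 of 526 and 32 of 701 in males). The percentage of cells holding a UMI of the gene was compared by exact permutation of mice (5 against 5 allow a smallest p of 0.0079). At this depth a share also depends on the level, so that more carrying cells and more RNA per cell cannot be told apart. All nucleated cells are known to express class I genes, so that no cell type in these libraries could serve as a blank, and RNA free in the droplets adds to all shares. In females the share of every member was higher in the old, with an exact permutation p under 0.05 for 8 of the 10 and complete separation for H2-T22, H2-T23, H2-M3 and Tapbp. Separation occurred in 1.32% of all genes tested. After adjustment over the 10074 genes 0 were called (lowest adjusted p = 0.312, 965 genes with an unadjusted p under 0.05).

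H2-T23 was found in 47.2% ± 8.11 of thinned cells of old and 36.6% ± 1.59 of young females (SD, n = 5, exact permutation p = 0.0079). H2-T22 was found in 22.5% ± 4.17 and 15.2% ± 0.886 (exact permutation p = 0.0079), and H2-M3 in 13.1% ± 2.58 and 8.78% ± 0.763 (exact permutation p = 0.0079). Without thinning the shares of these 3 genes were 93.4% and 86.8%, 72.6% and 52.9%, and 56.7% and 36.3%. For the transport genes the thinned shares were 29.3% ± 6.55 against 20.2% ± 1.60 for Tap1 (exact permutation p = 0.024), 12.2% ± 1.66 against 10.4% ± 0.81 for Tap2 (exact permutation p = 0.071) and 33.3% ± 2.00 against 29.6% ± 1.89 for Tapbp (exact permutation p = 0.0079). For Tap2 the exact permutation p depended on single mice. It was 0.024 without old female 2, 0.04 without young female 5 and 0.071 to 0.13 without each other mouse.

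H2-Q6 was detected in 3.05% ± 2.27 of thinned cells of old and 0.669% ± 0.451 of young females (exact permutation p = 0.024), H2-Q4 in 6.05% ± 2.94 and 2.68% ± 1.03 (exact permutation p = 0.016) and Nlrc5 in 2.98% ± 0.533 and 1.65% ± 0.619 (exact permutation p = 0.016). These transcripts were thus sparse at the thinned depth. Without thinning their shares in old and young females were 15.5% and 3.41% for H2-Q6, 28.3% and 15.5% for H2-Q4 and 13% and 7.29% for Nlrc5. H2-D1, in contrast, was near its ceiling, at 98.1% ± 0.996 and 97.1% ± 0.571 (exact permutation p = 0.079), so that a share could hardly show its increase in level. Without young female 1 or 3, 5 members had an exact permutation p under 0.05.

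**Figure D3:**
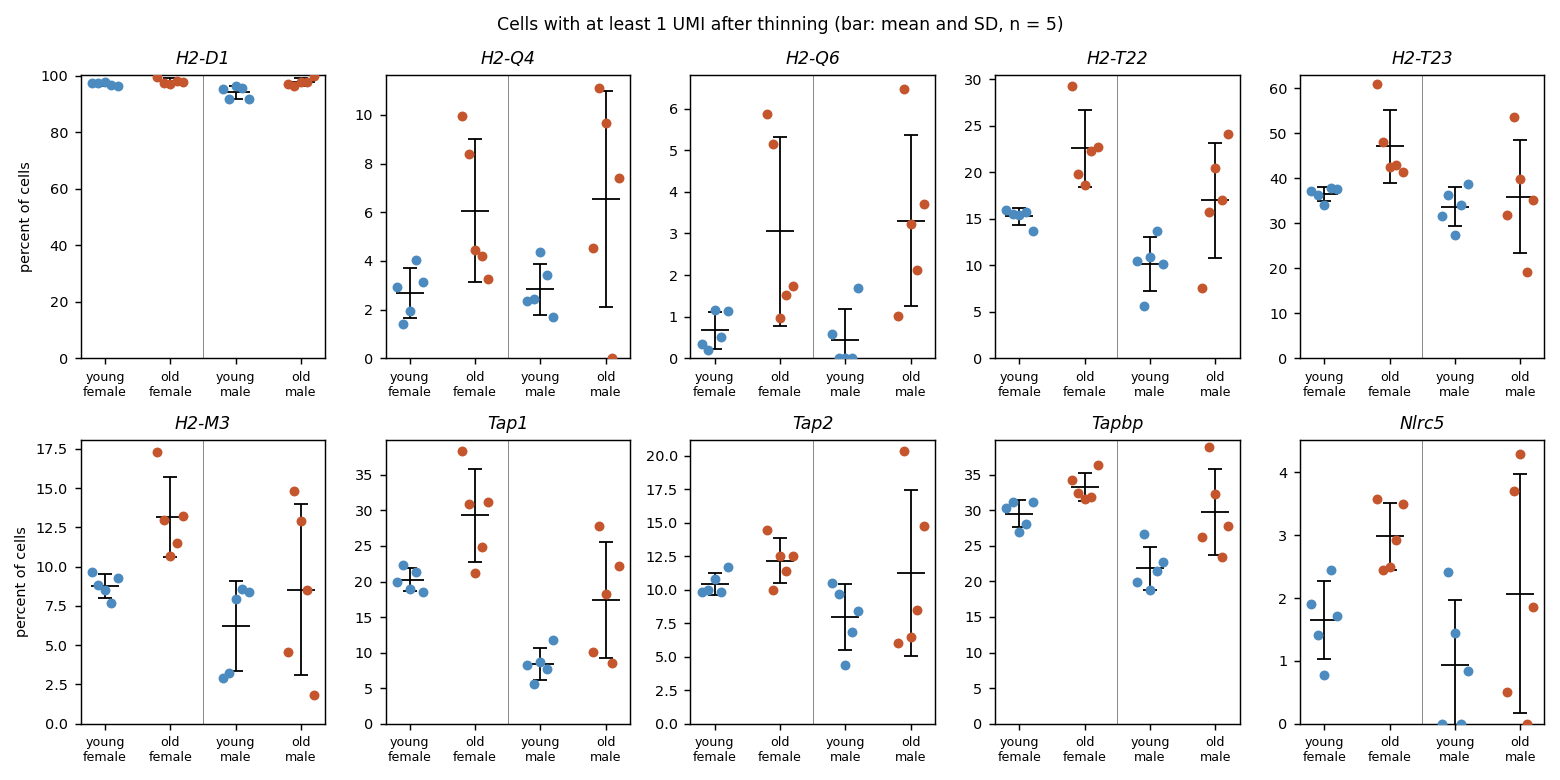
Percent of cells with at least 1 UMI after thinning to 2000 UMIs (vertical axes, from 0), by gene, age and pool, with 1 point per mouse and a bar for the mean and SD of 5 mice. H2-D1 lies near 100% in every group, and old females lie above young females without overlap for H2-T22, H2-T23, H2-M3 and Tapbp.

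In the males the mean share of all 8 tested members was higher in the old, but separation was complete for 0 (0.636% of all genes tested), and 0 of 5656 genes were called (lowest adjusted p = 0.538 by permutation, 426 genes with an unadjusted p under 0.05). Among the members an exact permutation p under 0.05 was obtained for H2-D1 (97.8% ± 1.40 against 94.2% ± 2.25, exact p = 0.016) and Tapbp (29.7% ± 6.04 against 21.9% ± 3.02, exact p = 0.024). For Tapbp the exact permutation p was 0.056 without young male 1, 3 or 4. With cells assigned by HTODemux, 0 of the 8 had an exact permutation p under 0.05. Tap1 was found in 17.4% ± 8.12 of old and 8.40% ± 2.21 of young male cells (exact permutation p = 0.056), and H2-Q6, outside the genes tested, in 3.31% ± 2.06 and 0.453% ± 0.731 (exact permutation p = 0.016).

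The members also varied among the kinds of monocyte. Cells of both pools were clustered on genes other than the members and other MHC genes, and clusters were named from marker lists. Cluster 0 was mature Ly6C-high-like, cluster 1 Apoe-high-like (with MHC class II genes among its leading genes), clusters 2 and 6 G2/M-like, cluster 3 S-like, cluster 5 NeuMo-like (Mpo, Elane, Prtn3) and cluster 7 interferon-stimulated-like (Ifit1, Isg15, Cxcl10). Cluster 4, led by Chil3 and Vcan, and a small cluster led by the pituitary hormone genes Gh and Pomc (119 female and 2 male cells) were left unnamed. A last cluster of 36 female and 14 male cells had 3 of the listed basophil genes (Mcpt8, Fcer1a and Cpa3) among its leading genes over both pools. Fcer1a had 0 UMIs in the females, so that its place there came from the male cells. The cells of this cluster may not be monocytes, and whether the female ones were basophils was not tested.

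Levels over all cells of a cluster, old and young mice pooled, are given as a description. In females Nlrc5 was at 52.1 CPM in the 120 interferon-stimulated-like cells (51 UMIs) and at 3.30 in the NeuMo-like cluster, the lowest of clusters 0 to 7. Cluster 6 was close, at 3.47 (15 UMIs), and in the means of old females cluster 6 was the lower (3.54 against 5.03). Over the same clusters Tap1 (371), Tap2 (97.1), Tapbp (372), H2-T22 (276) and H2-T23 (723) were likewise highest in the interferon-stimulated-like cells, while H2-D1 (3320) was highest in the Apoe-high-like cluster. The same clusters led for these 7 genes in the means of old and of young females taken apart, although only 2 old and 2 young females had at least 10 interferon-stimulated-like cells. For H2-Q4 and H2-M3 the leading cluster differed with age, and no order is given. H2-T23 differed 8.54-fold between the extremes, being at 84.7 in NeuMo-like cells. The NeuMo-like cluster had the lowest level of 7 of the 10 members in females. Of these, H2-D1, H2-T23, Tap1 and Tapbp were lowest there in old and in young females taken apart. Levels are shares of all UMIs, and NeuMo-like cells were deeper (a median of 24212.5 UMIs per female cell) than Apoe-high-like cells (7161). The 566 NeuMo-like cells held 19773 UMIs of H2-D1 and 1180 of H2-T23, and the 1236 Apoe-high-like cells 30100 and 4075. Per cell, H2-D1 was thus higher and H2-T23 lower in the NeuMo-like cells. In males 8 of the 10 were highest in the 32 interferon-stimulated-like cells, among them Nlrc5 (38.8, from 5 UMIs), H2-T23 (659) and Tap1 (202). Clusters outside 0 to 7 were left out of these orders. The 36 female cells of the last cluster held H2-Q6 at 114 CPM (44 UMIs) and H2-Q4 at 69.7 (27 UMIs), and its 14 male cells 0 UMIs of either.

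**Figure D4:**
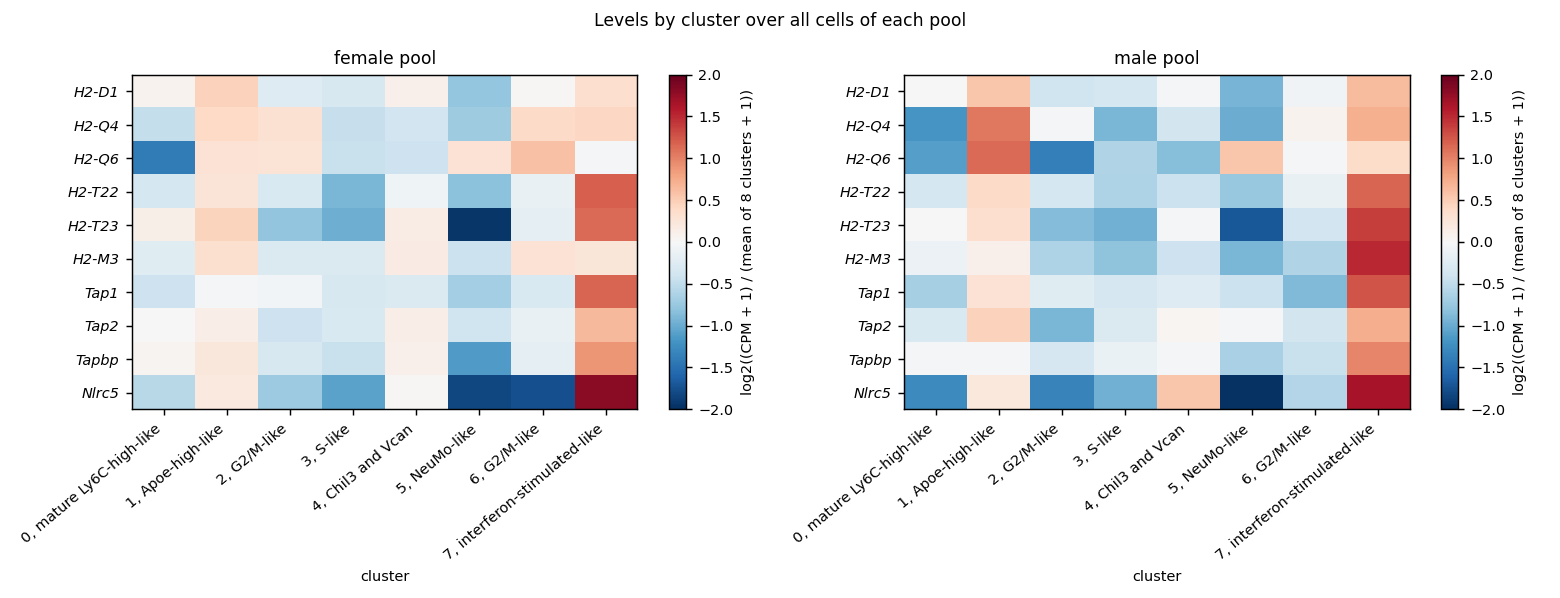
Level of each gene (rows) in clusters 0 to 7 (columns) over all cells of the female and of the male pool, coloured by log2 of its CPM plus 1 over the mean of the 8 clusters plus 1. The interferon-stimulated-like column is the most intense red for Nlrc5, Tap1 and H2-T23 in both pools, and the NeuMo-like column is blue for H2-D1, H2-T23 and Tapbp.

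The proportions of the clusters differed with age in females. The mature Ly6C-high-like cluster made up 14.3% ± 3.54 of the cells of old and 27.3% ± 2.12 of young females, and cluster 4 15.2% ± 4.26 and 6.81% ± 1.06 (SD, n = 5). The interferon-stimulated-like cluster made up 1.65% ± 0.736 and 1.81% ± 0.606. In males the mature Ly6C-high-like cluster was also lower in the old (12.2% ± 8.82 and 23.1% ± 3.95). Cluster 4 went the other way in males (8.34% ± 7.32 in old and 18.1% ± 8.05 in young). Proportions were not tested. Old and young females were therefore compared within each cluster that had at least 10 cells in every mouse, which were clusters 0 to 6. Of 58 pairs of a member and a cluster that could be tested, all 58 had a positive log2 fold change and 27 passed the test (edgeR, adjusted over the genes of the cluster). Over all genes tested the median log2 fold change lay between -0.0125 (cluster 4) and -0.000639 (cluster 3). The pairs came from the same mice in every cluster and are not independent of each other.

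H2-D1 rose in all 7 clusters. In the NeuMo-like cluster, where it was lowest, it was at 1707 ± 240 CPM in old and 1206 ± 76.6 in young females (SD, n = 5), a log2 fold change of 0.48 (SE 0.07, edgeR adjusted p = 0.000399). In the Apoe-high-like cluster, where it was highest, the means were 3718 ± 263 and 2986 ± 81.6 (log2 fold change 0.33, SE 0.05, edgeR adjusted p = 0.000143). Tap1 rose in 6 clusters, all but cluster 4, with its largest fold changes in the G2/M-like clusters 6 (0.84, SE 0.17) and 2 (0.75, SE 0.10). H2-T22 rose in clusters 0, 1, 2, 3 and 5 and H2-M3 in clusters 0 to 4. H2-T22 had its largest fold change in the Apoe-high-like cluster, from 95.1 ± 13.5 to 195 ± 32.7 CPM (log2 fold change 0.94, SE 0.11, edgeR adjusted p = 3.95e-06). H2-T23, which had just missed the test in the sums over all cells, rose in clusters 0, 1 and 2.

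With all mice, H2-Q6 was tested only in cluster 2, where it was higher in old females (log2 fold change 2.08, SE 0.43, edgeR adjusted p = 0.00658). It was at 6.13 to 39.4 CPM there in old and 2.94 to 4.6 in young females. Its passing of the filter on low counts may therefore have rested on the old mice, and its call is no support for a rise. With that limit it is counted in the 27 calls, in the 6 of 10 of cluster 2 and in the 19 calls made in every fit. In cluster 5 H2-Q6 was tested in some fits that left out 1 mouse, such as that without old female 3. H2-Q4, Tap2, Tapbp and Nlrc5 passed in 0 of their 22 pairs by edgeR, of which 12 had an unadjusted p under 0.05. Over all genes tested such a p was found for 1029 of 7309, 757 of 6004, 1027 of 8159 and 691 of 7095 in clusters 0 to 3. In clusters 4 to 6 it was found for 639 of 4988, 572 of 7345 and 443 of 4322. H2-Q4 had log2 fold changes of 0.61 to 0.85 in the 5 clusters in which it was tested. The members called numbered 5 of 9 in cluster 0, where 2.12% of all genes tested rose, 5 of 9 in cluster 1 (1.88%), 6 of 10 in cluster 2 (1.81%) and 4 of 8 in cluster 3 (0.832%). In cluster 4 they numbered 2 of 7 (1.32%), in cluster 5 3 of 8 (0.3%) and in cluster 6 2 of 7 (0.972%). The calls in the NeuMo-like cluster for H2-T22 (adjusted p = 0.0285) and Tap1 (adjusted p = 0.0282, both edgeR) were lost in 7 and 6, respectively, of the 10 fits that left out 1 mouse, and that for H2-T22 in cluster 3 in 5. Tap1 in cluster 0 was lost without young female 2 or 5, H2-T23 in cluster 0 without young female 5, and H2-M3 in clusters 0, 1 and 3 without young female 4 (edgeR adjusted p from 0.051 to 0.0713 over these). The other 19 of the 27 calls were made in every such fit. No cluster of the males had 10 cells in every mouse.

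**Figure D5:**
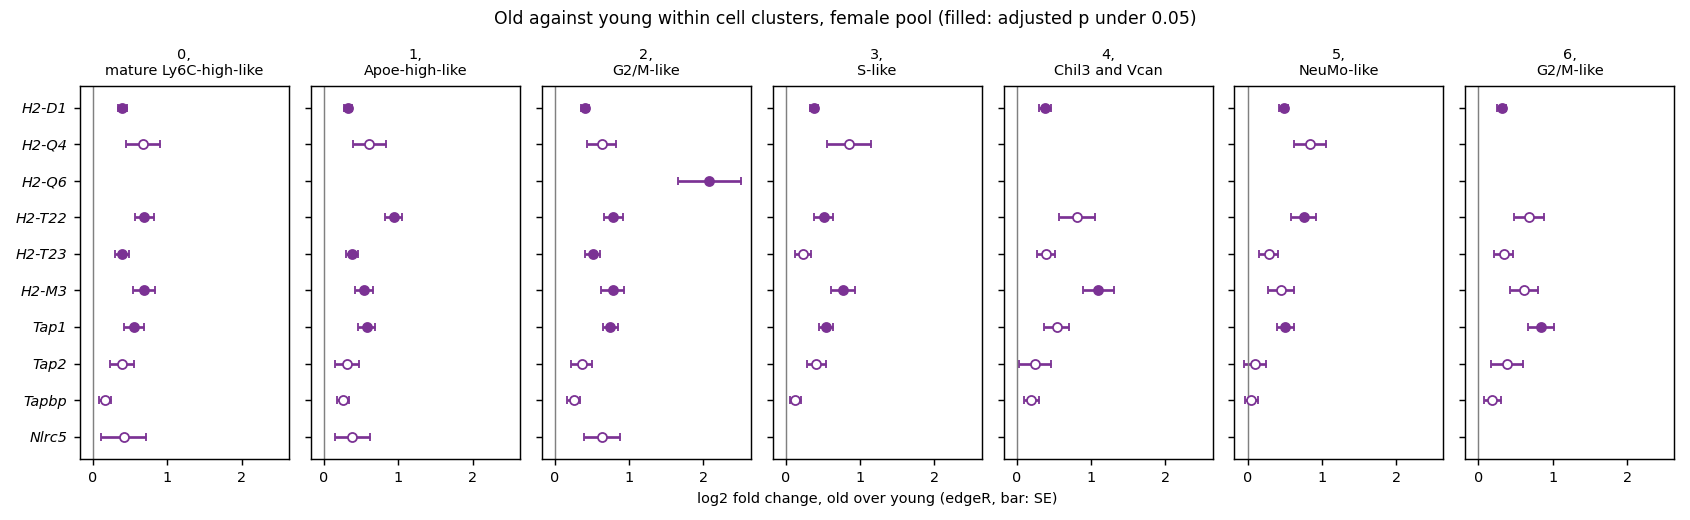
Log2 fold change of old over young females (horizontal axes, edgeR, bars: SE) for each gene in clusters 0 to 6, with filled points for an adjusted p under 0.05 and no point where a gene was too sparse to test. All points lie above 0, and H2-D1 is filled in all 7 clusters.

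Since Nlrc5 is known to activate class I genes, cells with and without a UMI of Nlrc5 were compared within each female, after thinning to 2000 UMIs. In the 9 mice with at least 5 positive cells (7 to 39 per mouse), the UMIs of the 9 other members summed to 7.56 per positive and 6.82 per negative cell. The difference of 0.747 ± 1.19 (SD) was positive in 6 of 9 mice (exact sign-flip permutation p = 0.098, smallest possible 0.0039). It was within the spread between mice, but without old female 2 the exact permutation p was 0.039, and in cells scaled to 10000 UMIs without thinning 0.037.

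Taken singly, H2-T22 had the highest ratio (1.77), at 0.391 UMIs per positive and 0.221 per negative cell, and was higher in the positive cells of 7 of 9 mice. Cells of all clusters were compared together, and Nlrc5 and H2-T22 were both highest in the interferon-stimulated-like cluster. The part of the kind of cell in these ratios was not tested. H2-D1 (5.32 and 4.97, higher in 5 of 9), Tap1 (0.344 and 0.302, 5 of 9) and H2-M3 (0.127 and 0.120, 4 of 9) had ratios of 1.06 to 1.14. The ratio was 1.26 for Tap2 (5 of 9), 1.18 for H2-T23 (5 of 9) and H2-Q4 (4 of 9) and 1.07 for Tapbp (4 of 9). H2-Q6 went the other way, with a ratio of 0.946, and was higher in 2 of 9. No member was higher in the positive cells of all 9 mice, as were 0.129% of the 10073 genes compared. In males no mouse had 5 positive cells after thinning. A cell without a UMI of Nlrc5 may still express the gene at this depth.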

How the data were processed

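The authors deposited UMI counts per gene and cell barcode, whole numbers without normalization, which per the labels and methods were made with STAR 2.5.1 and Cell Ranger 4.0.0 on mm10 (the file headers name Cell Ranger 3.1.0 for females and 7.0.0 for males). The members and gene lists were chosen with earlier results of these data known. Mice were identified by the deposited hashtag table, whose numbers pair no samples. Female cells were HTODemux singlets (Seurat 5.3.0) with over 200 genes and under 5% mitochondrial UMIs, without 2478 doublets. The male barcodes held 0 negatives and 0 cells over that share, so each went to its leading hashtag. HTODemux called 401 of them doublets, in which that hashtag held a median 95.2% of hashtag UMIs, and its 826 singlets were the alternative. Antibody counts of the females were not used here. The summed level of the B cell list is not reported here.

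UMIs were summed per mouse and compared in edgeR 4.0.16 by its quasi-likelihood method (2-sided, filterByExpr, TMM scaling, Benjamini-Hochberg adjustment over all genes tested), with DESeq2 1.42.0 as an alternative. Clusters used SCTransform (sctransform 0.4.2), integration over 3000 features without MHC genes, 20 principal components and a resolution of 0.3. All 10 members were named. Of other pathway genes, the 5 called with the lowest adjusted p were named, and of other genes the 5 with the highest correlation. On simulated counts, edgeR recovered 82.7% of 98 genes changed 1.5-fold among 10012 in the female design, 44.9% of 98 among 5504 in the male design and 13.0% of 100 among 8797 for the interaction. For a count of 0, 3 counts were taken as the upper limit, which covers counting error only. The mice of a pool shared 1 library and every later step.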

Additional observations from a re-analysis of the deposited data

Results flagged for a closer look

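Of 80 groups of 5 mice (levels and thinned shares of the 10 genes, by age and pool), 4 held a mouse whose gap to its nearest neighbour exceeded Dixon's 95% limit, and chance flags about 1 group in 20. Old female 1 stood apart for H2-T23, at 373 CPM, where the other old females were at 241 to 274. The same mouse stood apart for H2-M3, at 100, with the others at 58.7 to 69.3. The share of thinned cells with H2-T22 was 13.7% in young female 5 and 15.4% to 15.9% in the other young females. Tapbp was at 93.8 CPM in young male 5, and at 121 to 130 in the other young males.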

How the results depend on the processing

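In females, DESeq2 called 10 of the 10 members (390 of 10074 genes in all) and so did edgeR with no filter on low counts (392 of 16511). Thinned cells gave 5 of the 9 members tested, and the other settings (without other cell types, another assignment of cells, without the Gh and Pomc cluster, which was chosen after seeing the data) 7 to 9 of 10. All genes called numbered 345, and 194 to 522 when 1 mouse was left out (194 without young female 2 and 522 without old female 4), with 214 to 216 without young female 1, 4 or 5. With thinned cells they numbered 165. In males, DESeq2 called 1 member (Tap1, with the adjusted p of 4 others set to NA) and 22 of 5656 genes in all. With no filter, edgeR called 2 members and 95 of 13168 genes in all. The 2 members were Tap1 and H2-Q6, the latter from 30 UMIs in old and 5 in young males. The other settings called 0 members. The difference between the sexes was called for 0 members in every setting, as was the share of cells over all genes. Within clusters, 22 to 33 pairs were called when 1 mouse was left out and 28 of 57 at a resolution of 0.5.

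The difference between Nlrc5-positive and Nlrc5-negative cells was 2.19 UMIs per 10000 in cells without thinning, past the threshold, and 0.572 to 0.987 when 1 mouse was left out. In female cells thinned to 1000 UMIs it was 0.968, positive in 5 of 5 mice (exact sign-flip permutation p = 0.062, the smallest possible). In males it had no value with thinning. Without thinning it was 4.52 UMIs per 10000 in males, positive in 3 of 4 mice (exact sign-flip permutation p = 0.25). Without old male 2 the sign turned for H2-T23, in its log2 fold change (-0.10, and up to 0.28 without the other mice) and in its share of cells (-2.17 percentage points, and up to 6.47). Without young female 1 it turned for Tap2 within cluster 5 (a log2 fold change of -0.0195, and up to 0.18 without the other mice). The causes were not tested. The males had 49 to 206 cells per mouse, and H2-Q6 and Nlrc5 did not pass the filter on low counts in them.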
